A study of Mus musculus with 6 samples.

Results

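Interferon-stimulated genes are the genes that cells switch on after an interferon has bound its receptor. A list of 38 such mouse genes was followed in primary and metastatic tumours, and 37 of them were measured among the 30142 genes tested. A gene counted as measured where the platform annotation gave a probe set exactly 1 gene symbol and that symbol was on the list. Irf1 alone had 2 such probe sets, and the brighter on average was used. Ifi44 had no such probe set and is not analysed here.

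The arrays held RNA of 6 late-stage tumours grown from ID8-VEGF cells, a mouse ovarian surface epithelial line engineered to secrete vascular endothelial growth factor, which had been injected beneath the ovarian bursa. Mice C1M3, C1M5 and C2M3 each gave 1 primary tumour, which form the primary group, and 1 metastatic tumour, which form the metastatic group. Both groups therefore share the transplanted line, its growth factor and the hosts. Strain, age, any treatment or surgery of these mice and the site of each metastasis are not given in the labels. The tissue was a mixture of tumour and host cells, so that fewer cells of a type and less RNA per cell cannot be told apart. The ovarian surface marker gene Wt1 had log2 intensities of 10.11 to 11.07 and the keratin gene Krt18 of 11.32 to 13.33, where the medians of all genes were 4.90 to 5.15 on the 6 arrays. Both belong to a list of 8 tumour and ovarian surface genes, all 8 with a mean above the median level of all genes. On that list Krt7 had 5.59 to 7.58, and Epcam, at 4.77 to 5.43, stood near the medians. The primary tumour placed with mouse C2M3 carries that mouse in its title and donor label, while its source name gives C2M2, and the main results are also given without it.

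Type I interferons act through the kinases Jak1 and Tyk2 and a complex that holds Stat2 and Irf9, which binds a response element in the promoters of antiviral genes. Interferon-gamma, made mainly by T and NK cells, acts through gamma-activated sites and through Irf1, and its typical mouse targets include the guanylate-binding proteins and the immunity-related GTPases, which attack vacuoles of intracellular parasites. Many genes answer to both kinds of interferon, and in tumours macrophages, other host cells and the tumour cells themselves can all express them.

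Most of the interferon-stimulated genes had a higher mean in metastatic than in primary tumours, and the 7 interferon-gamma GTPases had a larger median difference than the 16 antiviral effectors, but no gene passed the test. The mean was higher in 30 of the 37 genes (81.1%) and lower in 7, where 55.1% of all genes tested had a higher mean. The median difference between metastatic and primary tumours, on the log2 scale, was 0.29 over the 37 genes, 0.23 over the effectors and 0.69 over the GTPases, against 0.02 over all genes. With limma, the mouse as a block and Benjamini-Hochberg adjustment, the adjusted p was under 0.05 for 0 of 30142 genes (0%). The 37 genes had adjusted p values of 0.841 to 0.994, of which 0.841 was the lowest over all genes. An unpaired fit likewise called 0 genes, its lowest adjusted p being 0.407.

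At an unadjusted p under 0.05, 4 of the 37 genes were higher in metastatic tumours (Ifit1, Ifit2, Ifit3 and Irgm1, 10.8%), against 2.96% of all genes, and 0 were lower, against 1.97%. The fit without the block placed 4 there, namely Ifit2, Xaf1, Gbp2 and Irgm1. The difference was positive in all 3 mice for 14 of the 37 genes (37.8%), against 11.1% of all genes and 12.1% of genes above the median level. It was negative in all 3 mice for Isg15 alone (2.70%), against 8.64% of all genes. The 3 metastatic values lay above the 3 primary values in Ifit2, Xaf1 and Gbp2 (8.11%), against 4.79% of all genes, and below them in 0, against 2.84%. Igtp alone had a mean at least 2-fold higher in metastatic tumours, as did 1.61% of all genes. Equal values on several arrays occurred in 21 of the 37 genes (56.8%) and in 51.4% of all genes.

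Much of the difference lay in mouse C1M3. The median over the 37 genes was 0.43 within C1M3, 0.07 within C1M5 and 0.08 within C2M3, against -0.02, 0.00 and 0.05 over all genes. The primary tumour of C1M3 held the lowest of the 6 values in 20 of the 37 genes (54.1%), against 16.4% of all genes. Without both tumours of C1M3 the median was 0.04, 25 of 37 genes had a higher mean (67.6%, against 60.9% of all genes), and 14 were higher in both other mice (37.8%, against 37.1% of all genes). Without the primary tumour of C1M3 alone the median was 0.07, with 27 of 37 genes higher (73.0%, against 62.8% of all genes). Leaving out the metastatic tumour of C2M3 gave a median of 0.17, and without the primary tumour of uncertain source name it was 0.33.

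Without that last tumour 33 of 37 genes had a higher mean (89.2%, against 51.2% of all genes). At an unadjusted p under 0.05, with limma and no block, 2 of the 37 were higher there, as were 680 of all 30142 genes. Without both tumours of C2M3, 17 of 37 genes were higher in both other mice (45.9%, against 15.7% of all genes). Of the genes described most closely, Ifit1 differed by 0.54, Ifit2 by 0.31, Gbp2 by 1.04, Igtp by 1.21 and Isg15 by -0.32 without the primary tumour in question. Rsad2, Oas2 and Irf9 turned from negative to positive there, at 0.05, 0.25 and 0.02.

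**Figure D1:**
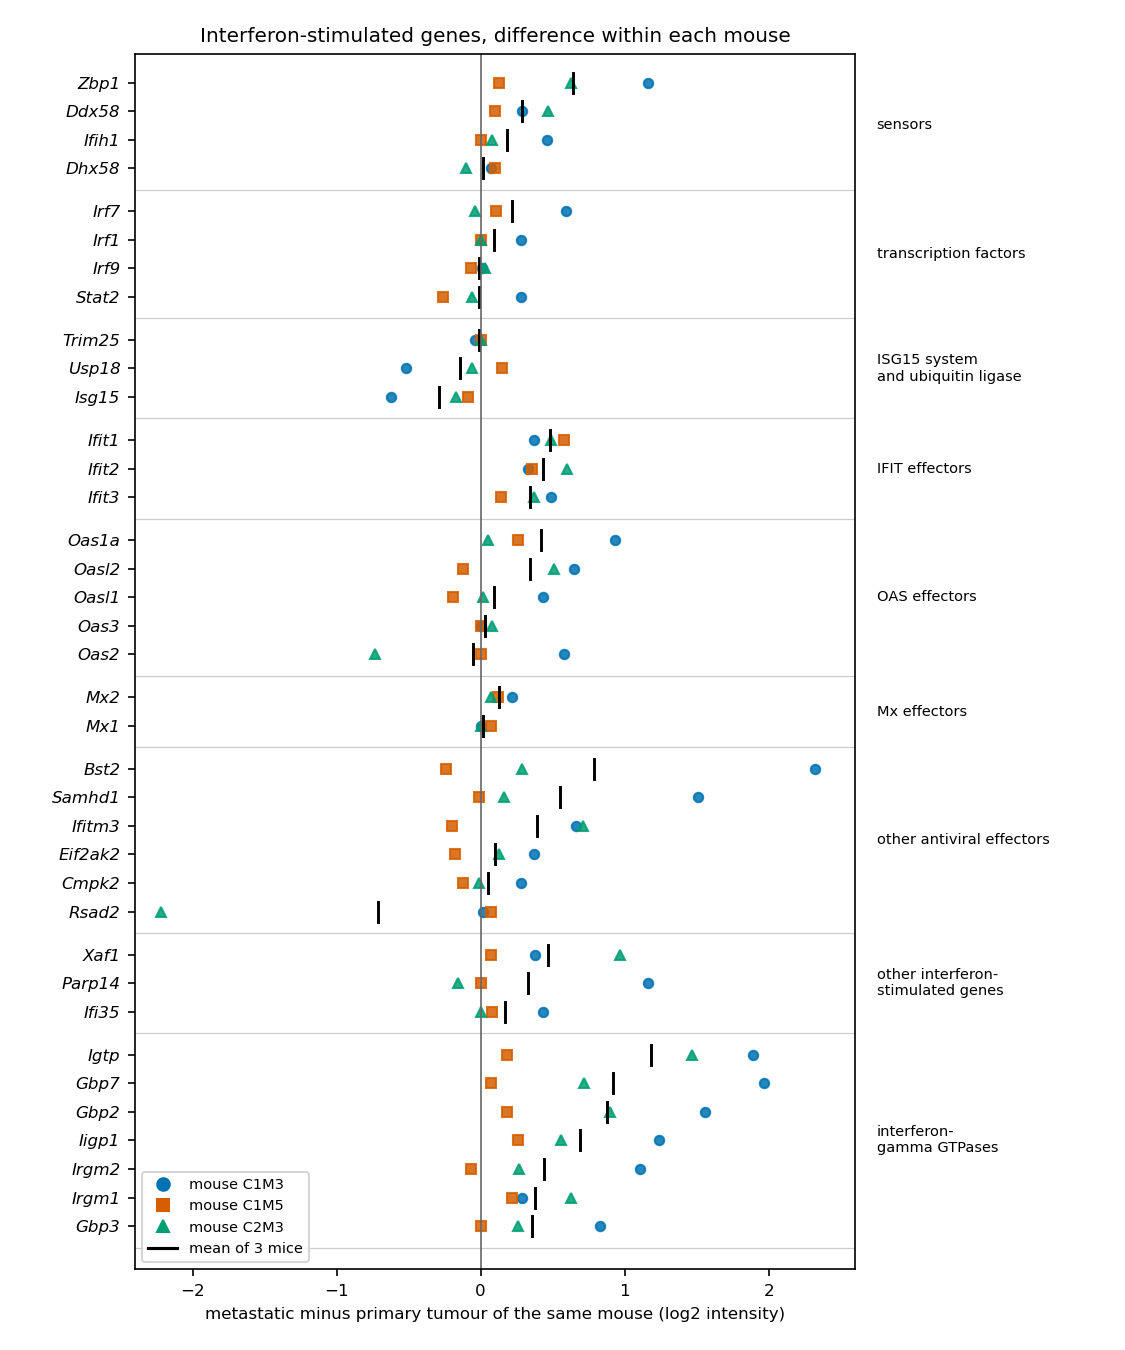
The horizontal axis gives the log2 intensity of the metastatic tumour minus that of the primary tumour of the same mouse, for the 37 measured genes grouped by role, with a symbol per mouse and a black bar at the mean of the 3 mice. Circles of mouse C1M3 reach 2.32 in Bst2, squares of mouse C1M5 lie between -0.26 and 0.58, all 3 symbols lie to the right of 0 for 14 genes, and Rsad2 has a single symbol far to the left, at -2.22.

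Promoters of 5 GTPases, of 2 IFIT effectors and of Isg15 are shown for a motif that they share, and that of Ifit2, an effector without it, for comparison. The RefSeq promoter table, of build GRCm38.p6, held 30 of the 38 genes. Dhx58, Zbp1, Usp18, Oas2, Mx1, Mx2, Parp14 and Iigp1 had no entry. The core of the interferon response element was searched in the 250 bases upstream of each start as GAAA, any 2 bases and GAAA, on either strand, and stands in capitals below. The sequences run 5′ to 3′ on the strand of the gene, for the effectors Ifit1 (chr19:34640639-34640888, plus strand), Ifit2 (chr19:34550444-34550693, plus strand) and Ifit3 (chr19:34583279-34583528, plus strand), the modifier gene Isg15 (chr4:156200819-156201068, minus strand) and the GTPases Gbp2 (chr3:142620413-142620662, plus strand), Gbp7 (chr3:142530086-142530335, plus strand), Igtp (chr11:58199306-58199555, plus strand), Irgm1 (chr11:48871421-48871670, minus strand) and Irgm2 (chr11:58214727-58214976, plus strand).
Ifit1: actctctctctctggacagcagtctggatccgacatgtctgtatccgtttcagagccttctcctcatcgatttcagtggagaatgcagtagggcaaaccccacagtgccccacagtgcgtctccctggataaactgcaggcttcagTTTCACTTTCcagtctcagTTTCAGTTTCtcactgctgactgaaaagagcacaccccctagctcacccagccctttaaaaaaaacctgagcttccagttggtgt
Ifit2: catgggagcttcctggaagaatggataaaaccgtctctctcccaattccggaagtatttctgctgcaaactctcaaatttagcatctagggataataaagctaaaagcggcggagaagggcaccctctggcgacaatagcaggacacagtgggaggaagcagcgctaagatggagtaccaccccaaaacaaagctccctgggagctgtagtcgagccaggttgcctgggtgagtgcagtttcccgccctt
Ifit3: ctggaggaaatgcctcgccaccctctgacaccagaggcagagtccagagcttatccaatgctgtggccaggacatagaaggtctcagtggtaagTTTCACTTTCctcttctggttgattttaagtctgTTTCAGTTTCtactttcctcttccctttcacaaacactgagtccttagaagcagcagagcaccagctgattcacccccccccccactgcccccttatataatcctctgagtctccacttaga
Isg15: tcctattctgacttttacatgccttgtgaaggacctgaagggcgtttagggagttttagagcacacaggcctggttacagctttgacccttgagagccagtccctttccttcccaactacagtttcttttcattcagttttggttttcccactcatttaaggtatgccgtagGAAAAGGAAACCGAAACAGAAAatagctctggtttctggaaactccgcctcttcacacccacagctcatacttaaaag
Gbp2: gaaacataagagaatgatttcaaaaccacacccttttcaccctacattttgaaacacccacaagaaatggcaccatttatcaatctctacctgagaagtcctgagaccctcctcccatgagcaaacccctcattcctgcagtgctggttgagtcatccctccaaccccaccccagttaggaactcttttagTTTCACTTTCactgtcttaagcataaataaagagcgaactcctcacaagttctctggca
Gbp7: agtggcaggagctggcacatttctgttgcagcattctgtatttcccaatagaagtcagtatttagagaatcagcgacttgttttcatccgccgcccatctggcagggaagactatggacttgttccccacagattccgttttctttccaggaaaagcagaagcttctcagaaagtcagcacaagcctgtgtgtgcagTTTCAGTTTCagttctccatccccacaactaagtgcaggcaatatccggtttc
Igtp: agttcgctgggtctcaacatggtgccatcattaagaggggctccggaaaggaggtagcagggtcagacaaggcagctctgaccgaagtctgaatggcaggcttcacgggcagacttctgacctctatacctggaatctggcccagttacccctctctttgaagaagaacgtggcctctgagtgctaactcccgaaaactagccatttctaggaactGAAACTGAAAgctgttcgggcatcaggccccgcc
Irgm1: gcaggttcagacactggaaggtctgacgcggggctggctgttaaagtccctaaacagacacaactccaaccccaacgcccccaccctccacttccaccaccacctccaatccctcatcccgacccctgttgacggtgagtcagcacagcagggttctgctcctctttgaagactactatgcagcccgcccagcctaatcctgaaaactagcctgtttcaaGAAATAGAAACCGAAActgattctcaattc
Irgm2: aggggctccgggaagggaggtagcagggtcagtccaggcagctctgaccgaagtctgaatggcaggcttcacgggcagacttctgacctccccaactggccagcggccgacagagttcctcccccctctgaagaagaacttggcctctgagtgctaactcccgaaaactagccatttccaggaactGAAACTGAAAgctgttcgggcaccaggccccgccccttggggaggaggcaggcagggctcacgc

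The core was present upstream of 14 of the 30 genes (46.7%), where 3.46% of the 27025 genes of the table held it and 2.98% of all 32851 promoters. All 6 GTPases with an entry had it, as did 6 of 13 effectors (46.2%) and 2 of 11 other genes, Isg15 and Stat2 (18.2%). Its first base lay 34 bases upstream of the start in Igtp, 64 in Irgm2, 59 in Gbp2 and 53 in Gbp7. Neither of the 2 windows listed for Ifit2 held the core. Overlapping copies were found in Isg15, beginning 78, 72 and 66 bases upstream, and in Irgm1, beginning 30 and 24 bases upstream. The gamma-activated site, searched as TTCNNNGAA, which reads alike on both strands, was present upstream of 9 of the 30 genes (30%), against 8.13% of the genes and 7.02% of the promoters of the table. It was found in 3 of 6 GTPases (50%), namely Gbp7, Igtp and Irgm2, in 5 of 13 effectors (38.5%) and in 1 of 11 other genes, Irf1 (9.09%). In Igtp and Irgm2 it began 45 and 75 bases upstream, just ahead of the response element core. These are neighbouring genes on chromosome 11, and their upstream windows share an identical stretch of 55 bases, the longest between any 2 of the 30 genes. That stretch begins 181 bases upstream in Igtp and 215 in Irgm2, and holds neither motif. Both motifs lie in a further stretch, nearer the start, that is nearly the same in the 2 windows printed above. The matches of Igtp and Irgm2 therefore need not be independent. The 14 genes with the response element core, all measured, had a median difference of 0.40, and 7 of them were higher in all 3 mice. The 15 measured genes with an entry and without the core had a median of 0.18, with 4 higher in all 3 mice. The split follows the GTPases: among the 8 core genes outside them the median was 0.18, equal to that of the genes without the core, and 3 were higher in all 3 mice. In windows of 300 bases the response element core was present in 18 of the 30 genes (60%), against 3.99% of the genes of the table. There 6 of 6 GTPases, 8 of 13 effectors (61.5%) and 4 of 11 other genes (36.4%) had it. The shares outside the GTPases thus varied with the window, and the differences were not split by the longer one. A match of letters describes the window and is no evidence of binding.

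Among the sensors of foreign nucleic acid, all 4 had a higher mean in metastatic tumours, by 0.02 to 0.64. Zbp1 encodes a sensor of Z-form nucleic acid that can start necroptosis. Its log2 intensity was 5.41, 5.90 and 6.14 in the primary tumours of C1M3, C1M5 and C2M3 and 6.57, 6.03 and 6.77 in their metastatic tumours, so that each metastasis was above its own primary tumour while the groups overlapped. The mean difference was 0.64 (SE 0.25), and 0.38 without mouse C1M3. Ddx58, which encodes the RNA helicase RIG-I, had 7.63, 7.98 and 7.98 in primary and 7.92, 8.08 and 8.45 in metastatic tumours, and the groups differed by 0.29 (SE 0.10). Without the metastatic tumour of C2M3, the highest of the 6, it was 0.14. Ifih1, which encodes the long double-stranded RNA sensor MDA5, differed by 0.18 (SE 0.13), and by 0.03 without the primary tumour of C1M3. Dhx58, a relative without signalling domains, differed by 0.02 (SE 0.07), and by -0.08 with each array centred on its median and -0.07 after quantile normalization.

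The transcription factors stood close to equal in the 2 groups, with mean differences of -0.01 to 0.22. Irf7, the factor that amplifies production of type I interferon, had 5.93, 6.51 and 6.56 in primary and 6.51, 6.63 and 6.51 in metastatic tumours. Only the primary tumour of C1M3 stood apart, and the difference of 0.22 (SE 0.16) was 0.02 without that tumour. Irf1, the early factor of the interferon-gamma response, had 5.43, 5.72 and 5.72 in primary and 5.71, 5.72 and 5.72 in metastatic tumours. Again the primary tumour of C1M3 was the lone low value, and the difference was 0.09 (SE 0.09), or -0.01 with arrays centred. Irf9 and Stat2, members of the type I complex, both differed by -0.01.

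In the ISG15 system the metastatic mean was the lower of the 2 for all 3 genes, and Isg15 alone was lower in each mouse. Isg15 encodes a ubiquitin-like protein that is attached to newly made proteins during the interferon response. Its log2 intensity was 7.54, 6.83 and 7.10 in primary and 6.93, 6.74 and 6.93 in metastatic tumours, with differences of -0.62, -0.09 and -0.17 within the 3 mice. The groups overlapped, and the mean difference was -0.29 (SE 0.14, limma adjusted p = 0.841), or -0.10 without the primary tumour of C1M3, the highest of the 6. Usp18, the protease that removes ISG15 and dampens type I signalling, followed a like order, with 6.76, 5.98 and 6.30 in primary and 6.24, 6.13 and 6.24 in metastatic tumours. Its difference was -0.14 (SE 0.17), and 0.06 without the primary tumour of C1M3. Trim25, the ubiquitin ligase that activates RIG-I, read 9.54 on 5 of the 6 arrays and differed by -0.01.

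The IFIT genes, whose products bind viral RNA and block its translation, were higher in the metastasis of all 3 mice in each of 3 genes. Ifit1, which recognises RNA with an unmethylated cap, had 6.90, 6.12 and 6.69 in primary and 7.26, 6.70 and 7.18 in metastatic tumours. The mice differed in level, with C1M5 lowest in both groups, while the difference within them was alike, at 0.37, 0.58 and 0.49. Its mean was 0.48 (SE 0.07, limma unadjusted p = 0.00607, adjusted p = 0.841). Without the block, which leaves the level of each mouse in the error, the SE was 0.26 and the unadjusted p 0.131 with limma. Leaving out single tumours gave 0.25 without the primary tumour of C1M5 and 0.65 without its metastatic tumour.

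Ifit2, which favours cell death in infected cells, had 7.59, 7.48 and 7.17 in primary and 7.92, 7.85 and 7.77 in metastatic tumours. Every metastatic value lay above every primary value, and the difference was 0.43 (SE 0.08, limma unadjusted p = 0.0137, adjusted p = 0.841). Ifit3, which stabilises the complex of IFIT proteins, had 7.12, 6.96 and 7.10 in primary and 7.61, 7.10 and 7.47 in metastatic tumours, a mean difference of 0.34 (SE 0.10, limma unadjusted p = 0.0403, adjusted p = 0.841). Its metastatic value in C1M5 lay within the range of the primary tumours, and the difference was 0.23 without the metastatic tumour of C1M3. The median of the 3 genes within C1M3, C1M5 and C2M3 was 0.37, 0.36 and 0.49. Ifit2 and Ifit3 are neighbours on chromosome 19 and belong to a family of related sequences, so their values need not be independent.

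The OAS genes encode enzymes that make the messenger of RNase L on meeting double-stranded RNA, and relatives of these enzymes. Their median difference was 0.58, 0.00 and 0.05 within the 3 mice, and 4 of 5 had their lowest value in the primary tumour of C1M3. Oas1a had 5.64, 6.37 and 6.61 in primary and 6.57, 6.63 and 6.66 in metastatic tumours, and the groups differed by 0.42 (SE 0.22), or 0.13 without that primary tumour. Oasl2, an OAS-like gene, had 7.81, 8.81 and 8.59 in primary and 8.45, 8.69 and 9.10 in metastatic tumours. The groups overlapped, and the difference of 0.34 (SE 0.20) was 0.05 without the primary tumour of C1M3. Oasl1, which restrains translation of Irf7, differed by 0.09 (SE 0.16), Oas3 by 0.03 (SE 0.05) and Oas2 by -0.05 (SE 0.31). Oasl1 turned to -0.10 with array weights and -0.02 with arrays centred, and Oas3 to -0.08 with arrays centred. Oas2 held opposite values, 0.58 within C1M3 and -0.73 within C2M3.

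The Mx genes encode dynamin-like GTPases that trap incoming viruses, and both lay below the median level of all genes tested. Mx1 had 4.38, 4.35 and 4.38 in primary and 4.38, 4.42 and 4.38 in metastatic tumours, a spread of 0.07 over the 6 arrays and a difference of 0.02 (SE 0.05), or -0.08 with arrays centred. Mx2 had 4.78, 4.88 and 5.0 in primary and 5.0, 5.0 and 5.07 in metastatic tumours. It was higher in the metastasis of each mouse, by 0.13 on average (SE 0.06), and 0.08 if the primary tumour of C1M3 is left out.

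The remaining effectors held the widest and least even values. Rsad2 encodes viperin, an enzyme that makes a chain-terminating nucleotide, and had 7.43, 7.01 and 9.52 in primary and 7.45, 7.08 and 7.30 in metastatic tumours. The primary tumour of C2M3, whose source name disagrees with its other labels, stood far above the other 5 arrays, which lay between 7.01 and 7.45. The mean difference was -0.71 (SE 0.61), and 0.05 without that tumour. Cmpk2, the neighbour of Rsad2 on chromosome 12 and the kinase that supplies its substrate, had 6.72 to 7.01 over all arrays and 7.01 in that tumour, with a difference of 0.05 (SE 0.11). It turned to -0.07 with array weights and -0.06 with arrays centred.

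Bst2 encodes tetherin, which holds budding virions at the cell surface. Its log2 intensity was 11.21, 12.26 and 13.23 in primary and 13.53, 12.02 and 13.52 in metastatic tumours. The primary tumour of C1M3 was the lowest, and the mean difference was 0.79 (SE 0.63), or 0.28 without that tumour. Samhd1, an enzyme that depletes nucleotides, was also lowest there, with 7.93, 9.33 and 9.26 in primary and 9.44, 9.31 and 9.42 in metastatic tumours. The difference was 0.55 (SE 0.39), and 0.10 without the primary tumour of C1M3. Ifitm3, which blocks fusion of viruses in endosomes, differed by 0.39 (SE 0.24), and by -0.13 without the metastatic tumour of C2M3. Eif2ak2, which encodes the kinase PKR, differed by 0.10 (SE 0.14), or -0.08 with array weights.

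Of 3 further genes, Xaf1, which promotes apoptosis, had 7.34, 7.52 and 7.02 in primary and 7.71, 7.59 and 7.99 in metastatic tumours. The groups did not overlap, although the gap between the metastatic and the primary tumour of C1M5 was only 0.07. The mean difference was 0.47 (SE 0.22), and 0.22 without mouse C2M3. Parp14, a mono-ADP-ribosyltransferase, had 5.62, 6.78 and 7.19 in primary and 6.78, 6.78 and 7.03 in metastatic tumours, a mean difference of 0.33 (SE 0.34) that was -0.12 without the primary tumour of C1M3. Ifi35 differed by 0.17 (SE 0.12), and by -0.01 without that tumour.

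**Figure D2:**
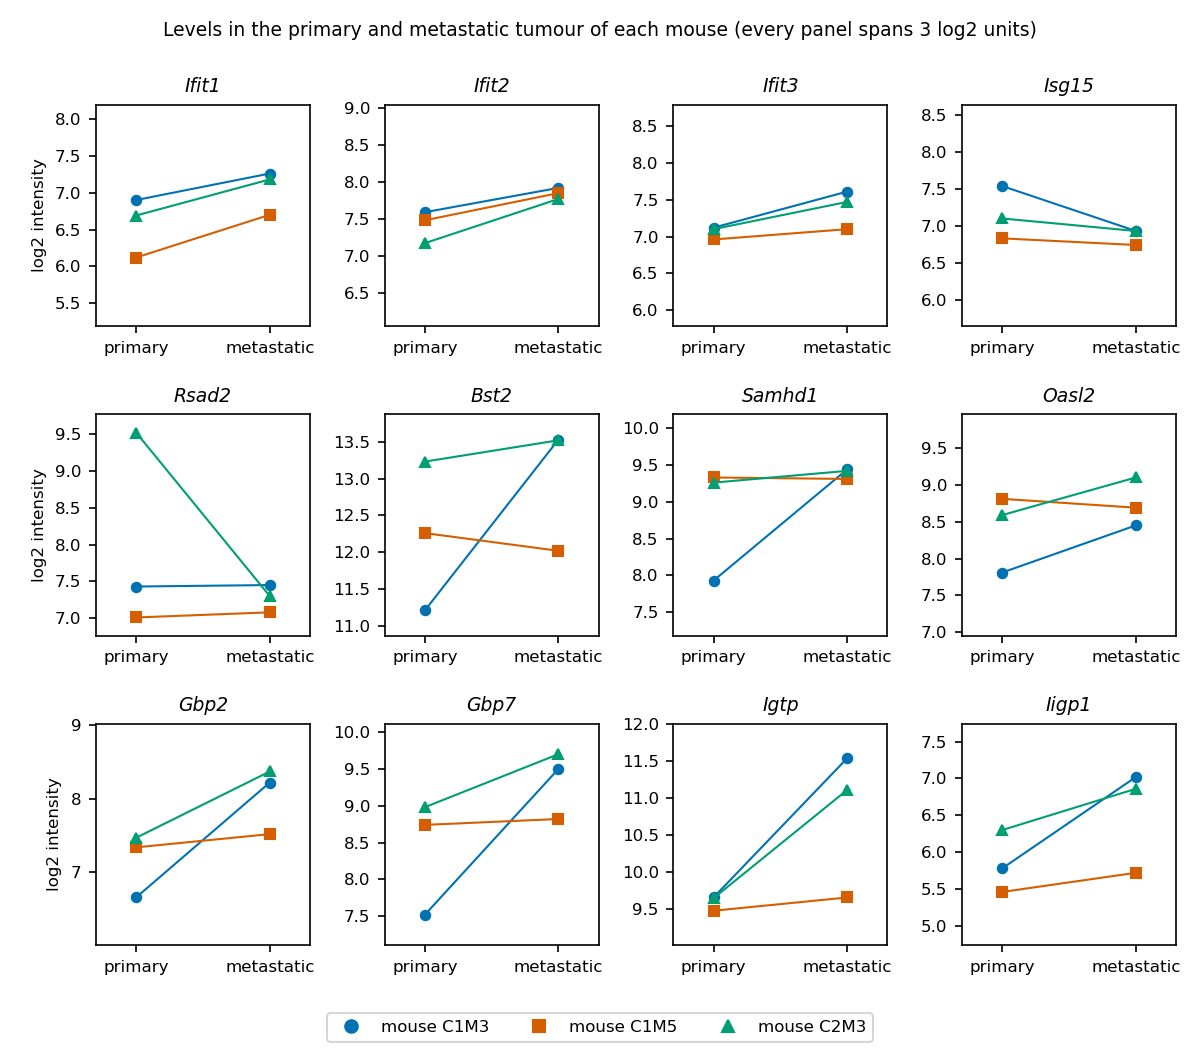
Each panel plots the log2 intensity of a gene in the primary and the metastatic tumour of the 3 mice, with a line joining the 2 tumours of a mouse and every panel spanning the same height. The lines of Ifit1, Ifit2 and Ifit3 run upward in all 3 mice, by 0.14 to 0.60. Those of Isg15 run downward, with differences from -0.62 to -0.09. Those of Gbp2, Gbp7, Igtp and Iigp1 also run upward in all 3 mice, but less in C1M5, by 0.07 to 0.26, than in C1M3 and C2M3.

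All 7 interferon-gamma GTPases had a higher mean in metastatic tumours, by 0.36 to 1.18, and 5 of them were higher in all 3 mice. Igtp, which encodes the regulatory immunity-related GTPase Irgm3, had 9.65, 9.47 and 9.64 in primary and 11.54, 9.65 and 11.11 in metastatic tumours. The primary tumours were nearly equal, while the metastases of C1M3 and C2M3 stood far above them and that of C1M5 did not. The group means were 9.59 ± 0.10 (SD, n = 3) and 10.77 ± 0.99, and the difference was 1.18 (SE 0.42, limma unadjusted p = 0.0659, adjusted p = 0.841), a 2.27-fold higher mean. Without the metastatic tumour of C1M3 the difference was 0.79. Irgm1, another regulatory member of that family, had 6.52, 6.30 and 6.36 in primary and 6.81, 6.52 and 6.99 in metastatic tumours, and the groups differed by 0.38 (SE 0.11, limma unadjusted p = 0.0436, adjusted p = 0.841), or 0.25 without mouse C2M3. Irgm2, the neighbour of Igtp, differed by 1.11, -0.07 and 0.27 within the 3 mice and by 0.44 on average (SE 0.29), or 0.10 without mouse C1M3.

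Iigp1 encodes an effector GTPase that breaks open parasite vacuoles. It had 5.78, 5.46 and 6.30 in primary and 7.02, 5.72 and 6.86 in metastatic tumours. Each metastasis was above its own primary tumour, with overlap between the groups, and the difference was 0.69 (SE 0.24), or 0.41 without mouse C1M3 and 1.10 without the metastatic tumour of C1M5.

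The guanylate-binding proteins assemble on pathogen vacuoles and bacteria. Gbp2 had 6.66, 7.34 and 7.47 in primary and 8.22, 7.52 and 8.37 in metastatic tumours. The groups did not overlap, although the metastasis of C1M5 exceeded the primary tumour of C2M3 by little, and the difference was 0.88 (SE 0.33), or 0.54 without mouse C1M3. Gbp7 had 7.52, 8.74 and 8.98 in primary and 9.50, 8.82 and 9.70 in metastatic tumours, a mean difference of 0.92 (SE 0.46), or 0.40 without mouse C1M3. Gbp3 differed by 0.83, 0.00 and 0.26 within the 3 mice and by 0.36 on average (SE 0.21), or 0.13 without mouse C1M3. Gbp7, Gbp3 and Gbp2 lie in a row on chromosome 3, with 1 other protein-coding gene between them, and resemble each other in sequence, and probe sequences were not used here, so signal shared between copies cannot be told apart from their own.

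Set against each other, the effectors and the GTPases differed in the same order in every mouse. The effector median was 0.40, 0.00 and 0.10 within C1M3, C1M5 and C2M3, and the GTPase median was 1.24, 0.18 and 0.63. The effector median minus the GTPase median was -0.84, -0.18 and -0.53 in these mice, and -0.45 for the means over mice. In C1M5, 7 effectors were higher and 7 lower in the metastasis, against 5 GTPases higher and 1 lower. In C1M3, 14 effectors were higher and 0 lower, and 7 of 7 GTPases were higher. In C2M3, 12 effectors were higher and 3 lower, and again 7 GTPases were higher. Of all 30142 genes, 10540 were higher and 16357 lower in C1M3, 15103 and 10912 in C1M5, and 17607 and 9445 in C2M3. The ranges overlapped, since 6 effectors had a mean difference above the lowest GTPase, Gbp3. Within single mice the overlap was as wide or wider. There 11 of 16 effectors lay above the lowest GTPase in C1M3, 10 in C1M5 and 6 in C2M3. No test was made of this contrast, because its genes were chosen with results of these data known.

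The size of the contrast varied with the genes and tumours used. All 7 GTPases but only 13 of 16 effectors lay above the median level of all genes. Among genes above that level the effector median was 0.34 and the GTPase median 0.69. The effector minus the GTPase median was then -0.34. Without the primary tumour of C1M3 the GTPase median was 0.48 and the effector median 0.08. There 7 of 7 GTPases and 12 of 16 effectors (75%) had a higher mean, against 62.8% of all genes. Without both tumours of C1M3 the medians were 0.41 and 0.06. In that setting 7 of 7 GTPases and 11 of 16 effectors (68.8%) had a higher mean, against 60.9% of all genes. The GTPase median was 0.45 when the metastatic tumour of C1M3 was left out and 1.10 when that of C1M5 was. Leaving out the metastatic tumour of C2M3 gave an effector median of 0.12. The effector minus the GTPase median was -0.23 without the metastatic tumour of C1M3 or the primary tumour of C1M5, and -0.81 without the metastatic tumour of C1M5. Without the primary tumour of uncertain source name the medians were 0.92 for GTPases and 0.28 for effectors.

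**Figure D3:**
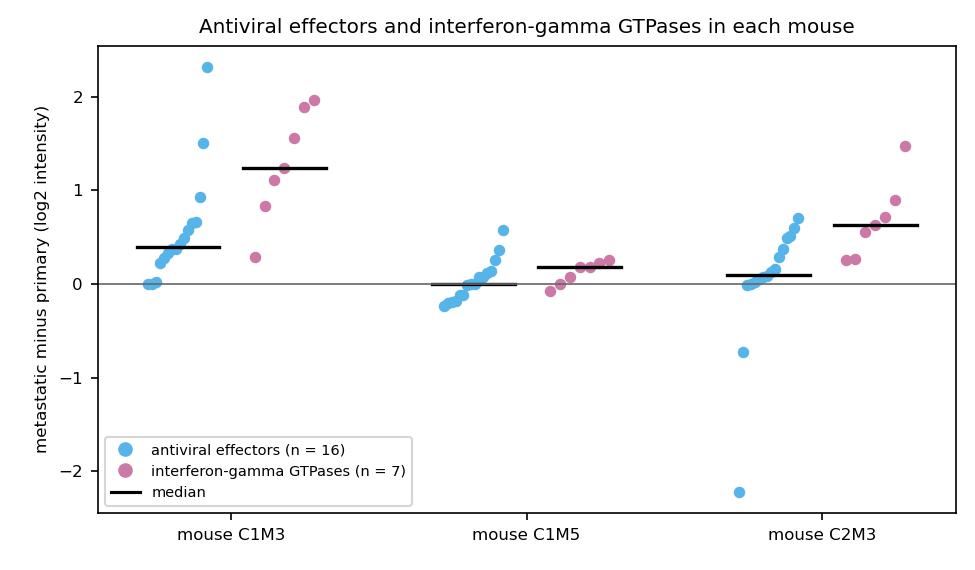
The vertical axis gives the log2 intensity of the metastatic minus the primary tumour for each of 16 antiviral effectors and 7 interferon-gamma GTPases, in each mouse, with black bars at the medians. The GTPase bar lies above the effector bar in every mouse, at 1.24 against 0.40 in C1M3, 0.18 against 0.00 in C1M5 and 0.63 against 0.10 in C2M3, and the points of the 2 sets overlap.

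Upstream in the pathway, receptor genes had higher means in metastatic tumours, while ligand, signalling and inhibitor genes had medians close to 0. Of 18 measured interferon ligand genes, 10 had a higher mean and 8 a lower mean, with a median of 0.06, and only 2 lay above the median level of all genes. Within C1M3, C1M5 and C2M3 the ligand medians were -0.19, 0.08 and 0.20. Ifna4 differed by 0.40 (SE 0.18), Ifna1 by 0.36 (SE 0.15) and Ifna12 by -0.36 (SE 0.23). Ifng, the interferon-gamma gene itself, read 4.14 in the primary tumour of C1M3 and 4.04 on the other 5 arrays. All 6 receptor genes had a higher mean, with a median of 0.31, within-mouse medians of 0.61, 0.01 and 0.15, and their largest values in Ifnar2, a type I receptor chain, at 0.55 (SE 0.29), Il10rb, a chain of the lambda receptor, at 0.41 (SE 0.30), and the interferon-gamma receptor chain Ifngr2 at 0.38 (SE 0.13). In 5 of these 6 genes the primary tumour of C1M3 was the lowest array. Signalling genes had a median of 0.05 over 7 measured genes, with within-mouse medians of 0.45, -0.01 and -0.12. They were led by Jak2 at 0.33 (SE 0.14), Tyk2 at 0.13 (SE 0.18) and Irf5 at 0.09 (SE 0.11). Inhibitors had a median of 0.04 over 5 genes, with the phosphatase gene Ptpn6 at 0.66 (SE 0.23), Pias1 at -0.19 (SE 0.13) and Ptpn2 at 0.11 (SE 0.06).

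In the sensing pathways that lead to interferon, 8 of 12 genes had a higher mean, with a median of 0.06. Sting1, the adaptor of the DNA sensing pathway, differed by 0.94 (SE 0.39) and Trim30a by 0.71 (SE 0.32). Mavs, the adaptor through which RIG-I and MDA5 signal, lay lower in the metastasis of each mouse, with differences of -0.24, -1.02 and -0.69 and a mean of -0.65 (SE 0.19, limma unadjusted p = 0.0408, adjusted p = 0.841). Of 18 other interferon-gamma targets listed, 10 were measured and 8 of these had a higher mean. Their median was 0.33, with within-mouse medians of 0.74, 0.05 and 0.21, and their values were uneven. Cxcl9, a chemokine that attracts activated T cells, had 5.29, 5.10 and 7.15 in primary and 7.86, 5.54 and 7.45 in metastatic tumours, and the groups differed by 1.11 (SE 0.60). Gbp4 had 8.31, 8.95 and 8.95 in primary and 9.78, 8.95 and 10.13 in metastatic tumours, a mean difference of 0.88 (SE 0.37), and Gbp9 differed by 0.68 (SE 0.28). Gbp4 and Gbp9 were nearly equal in the 2 tumours of C1M5, while Cxcl9 differed there by 0.44, more than the 0.31 within C2M3. Gbp8 and Gbp11 had mean differences of 0.60 and 0.52. The other measured targets stood closer to equal, with Ciita and Cd274 at 0.14, Cxcl10 at 0.03, and Cxcl11 and Ido1 at -0.02.

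Among other type I interferon targets, 15 of 22 measured genes had a higher mean and 7 a lower mean, with a median of 0.10. The widest values there were negative. Ifi27l2a had 4.83, 8.07 and 9.09 in primary and 5.52, 5.52 and 5.37 in metastatic tumours, and the groups differed by -1.86 (SE 1.07). The order of its primary tumours, with C2M3 highest and C1M3 lowest, was also that of the adipocyte marker list, whose means were 5.70, 9.27 and 11.63 in primary and 5.37 to 5.87 in metastatic tumours, and the part of fat tissue in the result was not tested. Slfn5 differed by -0.65 (SE 0.52) and Ifitm2 by -0.61 (SE 0.27). With limma, 0 genes of these 7 pathway lists passed at an adjusted p under 0.05, and at an unadjusted p under 0.05 2 of the 80 measured genes were higher (2.5%, against 2.96% of all genes) and 1 was lower (1.25%, against 1.97%).

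Markers of host cells moved with several of these values. All 12 macrophage genes, among them Adgre1, Csf1r, C1qa and Lyz2, had their lowest value in the primary tumour of C1M3. Their summed level, given as the mean of the list, was 6.32, 8.15 and 8.66 in primary and 7.88, 8.06 and 8.65 in metastatic tumours. The GTPases had means of 6.99, 7.25 and 7.48 in primary and 8.26, 7.37 and 8.17 in metastatic tumours, and the effectors 6.71, 7.05 and 7.34 against 7.29, 7.08 and 7.37. In C2M3 the macrophage mean was nearly equal in both tumours, at 8.66 and 8.65, while the GTPase mean was 7.48 and 8.17. The macrophage genes of C2M3 went both ways, 7 higher in the metastasis, with Fcgr1 at 0.85 and Adgre1 at 0.72, and 5 lower, with Mrc1 at -1.12 and Cd163 at -1.11, with a median of 0.16. The IFIT mean was 7.20, 6.86 and 6.99 in primary and 7.60, 7.22 and 7.47 in metastatic tumours, with the primary tumour of C1M3 as the highest of the primary group, where the macrophage mean was lowest.

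The 3 general leucocyte genes had means of 5.24, 6.12 and 6.44 in primary and 6.25, 6.18 and 6.80 in metastatic tumours. T and NK cell genes, 12 in number, had means of 4.59, 4.67 and 4.99 in primary and 4.83, 4.81 and 5.15 in metastatic tumours, 6 of them above the median level. Their differences ranged from -0.18 in Cd4 to 0.82 in Nkg7, with a median of 0.13, and the granzyme genes Gzma and Gzmb differed by -0.02 and 0.01. Genes of the tumour and ovarian surface had means of 10.44, 11.69 and 10.43 in primary and 10.26, 11.73 and 10.17 in metastatic tumours, highest in C1M5 in both groups. These 8 genes went both ways, 3 with a higher and 5 with a lower mean in metastatic tumours. Krt18 was lower in each mouse, at -1.05, -0.24 and -1.26, with a mean of -0.85 (SE 0.26). Krt8 differed by -0.61 (SE 0.40), Krt19 by 0.34 (SE 0.34) and Upk3b by 0.18 (SE 0.48). Fibroblast genes, all 5 lowest in the primary tumour of C1M3, had means of 7.53, 9.90 and 11.17 in primary and 9.18, 9.01 and 10.93 in metastatic tumours. All 5 endothelial genes were higher in the metastasis of C1M3 and lower in those of C1M5 and C2M3, with list means of 6.62, 7.49 and 8.92 in primary and 7.92, 6.22 and 7.53 in metastatic tumours. Proliferation genes had list means of 10.69, 9.05 and 8.56 in primary and 9.21, 9.11 and 7.76 in metastatic tumours, and the median difference of the 4 measured was -0.81. The part of macrophages, other leucocytes, fibroblasts, vessels, proliferation and tumour cells in the differences above was not tested.

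**Figure D4:**
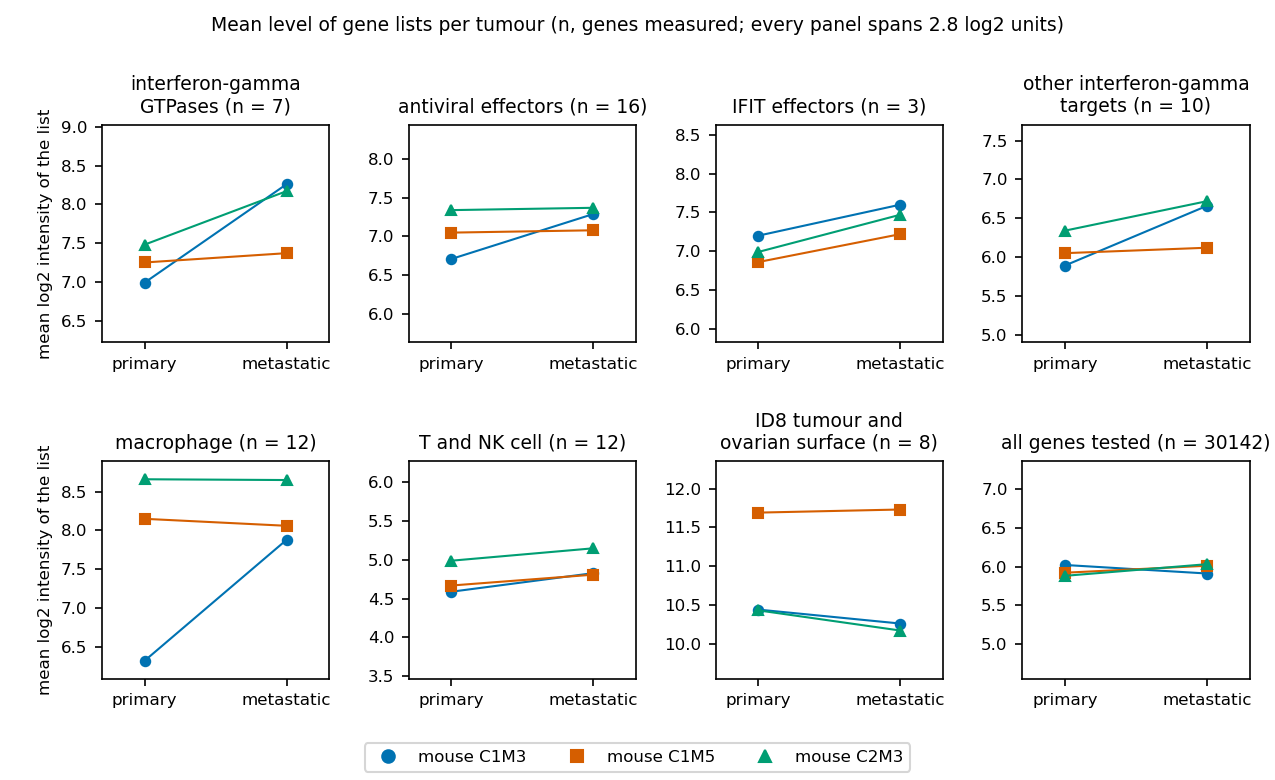
Each panel plots the mean log2 intensity of a gene list in the primary and the metastatic tumour of the 3 mice, with a line joining the 2 tumours of a mouse and every panel spanning the same height. The GTPase lines climb in C1M3 and C2M3 and less in C1M5, from 7.25 to 7.37, and the IFIT lines climb in all 3 mice. The macrophage line climbs in C1M3 only, from 6.32 to 7.88, and the lines of all genes tested stay near level.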

How the data were processed

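Affymetrix arrays measured total RNA of 6 tumours across the transcriptome. The authors deposited log2 intensities, 1 per probe set and array. RMA, which corrects background, normalizes by quantiles and summarises probes, and Transcriptome Analysis Console are named in the submitters' processing notes. The build of the array annotation is not given in the sources used here.

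Of 65956 non-control probe sets, 30604 carried 1 gene symbol, 2146 several and 33206 none, and 6732 controls were set aside. A RefSeq table updated the symbols of 826 probe sets.

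The comparison of tissues used limma 3.58.1 (R 4.3.3), with mouse and tissue as terms, empirical Bayes moderation and two-sided tests. Pairing follows the donor label. Deviations from the group means correlated across genes within mice with r = -0.052, 0.354 and 0.073 for C1M3, C1M5 and C2M3. The primary tumours of C1M3 and C2M3 correlated more with the metastasis of another mouse (0.127 and 0.087). The p-values of the paired fit rest on the spread of the within-mouse differences over 3 animals, with 2 residual and 1.04 prior degrees of freedom. Those of the fits without the block rest on the spread between tumours of a group. The fit was also run on simulated data with known changes. These had independent genes and a level shared by both tumours of a mouse, so they do not test the pairing. Alternatives were no block, array centring, quantile normalization, a level filter, the mean of probe sets, array weights, a variance trend and leaving out mice or tumours.

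The genes, lists and promoter search were chosen with earlier results of these data known. Given in full were effectors and GTPases with 1 sign in all 3 mice, the 2 widest differences per role, and Isg15, Irf7, Ifit1, Irf1, Igtp and Iigp1. Of each pathway list, the 3 widest were named. Other values, such as those of Samhd1, Krt18 and further interferon-gamma targets, were added after they were seen. Counts without single tumours were also added after seeing the data.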

Additional observations from a re-analysis of the deposited data

How the results depend on the processing

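No gene passed at an adjusted p under 0.05 with limma in any of the settings run. The replicate block changed no call: with no replicate block the median over the 37 genes was 0.29 as in the paired fit, and 867 genes lay higher and 402 lower with an unadjusted p under 0.05, against 891 and 594 paired. These were 429 and 1159 with arrays centred on their medians, 643 and 778 after quantile normalization, 3503 and 1758 with array weights and 3350 and 1102 without mouse C1M3. Centring brought the median of all genes from 0.02 to -0.09. The median over the 37 genes was 0.07 with array weights, and 0.04 to 0.38 when mice or tumours were left out. The effector minus GTPase median ran from -0.81 to -0.23 when they were left out, and the GTPase median from 0.41 to 1.10. With array weights the GTPase median was 0.36, the effector median 0.06 and the contrast -0.30. Single genes turned sign with arrays centred (Dhx58 -0.08, Irf1 -0.01, Oas3 -0.08, Oasl1 -0.02, Mx1 -0.08, Cmpk2 -0.06), after quantile normalization (Dhx58 -0.07, Oas3 -0.07, Mx1 -0.03) and with array weights (Usp18 0.06, Oasl1 -0.10, Cmpk2 -0.07, Eif2ak2 -0.08). When mice or tumours were left out, Dhx58 ran from -0.03 to 0.09, Irf9 from -0.05 to 0.03, Stat2 from -0.18 to 0.14 (mice alone, -0.16 to 0.11, and 0.01 if the primary tumour of C1M3 or the metastatic tumour of C2M3 is left out), Usp18 from -0.33 to 0.06 (-0.29 without mouse C1M5), Oas2 from -0.36 to 0.29 and Oasl1 from -0.19 to 0.38 (0.23 without mouse C1M5). Likewise Rsad2 ran from -1.20 to 0.05 (-1.10 without mouse C1M5), Cmpk2 from -0.07 to 0.14, Ifitm3 from -0.13 to 0.75, Eif2ak2 from -0.03 to 0.25, Ifi35 from -0.01 to 0.29 and Parp14 from -0.12 to 0.66 (0.58 without mouse C2M3). The causes were not tested. With 3 mice, the number of arrays limits what can be called, and Mx1, Mx2 and Oas3 lay below the median level of all genes.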
